A study of Rattus norvegicus with 10 samples.

Results

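The nuclear genes of the mitochondrial respiratory chain were measured in rat liver after repeated oral dosing with indole-3-carbinol. The members were the genes whose single annotated symbol began with Nduf, Uqcr, Cox4 to Cox8 or Atp5, together with Sdha to Sdhd. The rule reads gene names, and it was written with earlier results of these data known. It gave 86 of the 14217 genes that could be named from 1 probe set or more, each read from its brightest probe set by the mean over all 10 arrays. They comprised 40 genes of complex I, 4 of complex II, 7 of complex III, 18 of complex IV, 16 of ATP synthase and 1 gene listed as a pseudogene, Cox6c-ps1. Ndufa4 was placed with complex IV, where its protein is now known to sit.

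All livers came from female Harlan Sprague-Dawley rats gavaged 5 days per week for 13 weeks, per the sample labels. The series' own design text speaks instead of a 2-year study. The 5 vehicle rats received corn oil alone, and the 5 dosed rats received 300 mg of indole-3-carbinol per kg of body weight in corn oil. Indole-3-carbinol is a compound released from cruciferous vegetables whose acid products activate the aryl hydrocarbon receptor. The labels give neither an age nor an animal number, so the p-values describe the spread between these 10 samples. Whole liver was profiled, so fewer cells of a type and less RNA per cell cannot be told apart. The array medians lay between 6.21 and 6.29 on the log2 scale, and pairwise correlations between arrays were 0.983 to 0.997. The number of arrays limits the precision. Cyp1a1, the drug-metabolising enzyme used as a marker of aryl hydrocarbon receptor activity, differed by 8.38 ± 0.15 (SE, log2) between dosed and vehicle livers, and every dosed liver lay above every vehicle liver.

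The respiratory chain passes electrons from NADH through complex I, or from succinate through complex II, to ubiquinone. Complex III hands them on to cytochrome c, and complex IV reduces oxygen with them. Complexes I, III and IV pump protons across the inner mitochondrial membrane, and ATP synthase makes ATP from their return. Hepatocytes are rich in mitochondria and use this ATP for gluconeogenesis and urea synthesis. A further 13 subunits are encoded in mitochondrial DNA, and none of them was matched to a probe set here. The tissue label was set beside markers. Alb, the main plasma protein made by hepatocytes, had a log2 signal of 15.11 in both groups, the highest vehicle mean of all genes. The median probe-set signal was 6.24, and 8 of 8 measured hepatocyte markers were above it. Of the 6 Kupffer cell and 6 endothelial markers 0 were below it too, so this count does not set hepatocytes apart.

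Promoter sequences are shown for the pair of members that passed the test, Ndufb10 and Ndufb7, and for Ndufaf4, the member with the most positive difference. Each window runs from 250 bases before to 50 bases after the annotated start, is written 5′ to 3′ on the gene's strand, and comes from RefSeq on the GRCr8 build. Capitals mark matches to the NRF1 motif (GCGCA, any base, then GCGC) or the ETS-family motif CCGGAAG, searched on both strands. NRF1 is a factor long known to bind promoters of respiratory chain genes. The windows are chr10:14255917-14256216 on the minus strand for Ndufb10, chr19:41477242-41477541 on the minus strand for Ndufb7, and chr5:43401545-43401844 on the plus strand for Ndufaf4.
Ndufb10: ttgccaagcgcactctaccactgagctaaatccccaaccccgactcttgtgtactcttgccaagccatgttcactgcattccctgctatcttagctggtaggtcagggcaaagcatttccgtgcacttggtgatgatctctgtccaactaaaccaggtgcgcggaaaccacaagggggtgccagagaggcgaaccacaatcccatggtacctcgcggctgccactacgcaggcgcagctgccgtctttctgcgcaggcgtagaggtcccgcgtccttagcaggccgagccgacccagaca
Ndufb7: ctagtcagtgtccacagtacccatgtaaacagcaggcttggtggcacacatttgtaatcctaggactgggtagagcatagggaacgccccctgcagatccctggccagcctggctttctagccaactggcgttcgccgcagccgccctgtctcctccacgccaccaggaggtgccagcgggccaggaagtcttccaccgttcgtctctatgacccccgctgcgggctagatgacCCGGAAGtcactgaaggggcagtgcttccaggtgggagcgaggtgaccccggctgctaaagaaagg
Ndufaf4: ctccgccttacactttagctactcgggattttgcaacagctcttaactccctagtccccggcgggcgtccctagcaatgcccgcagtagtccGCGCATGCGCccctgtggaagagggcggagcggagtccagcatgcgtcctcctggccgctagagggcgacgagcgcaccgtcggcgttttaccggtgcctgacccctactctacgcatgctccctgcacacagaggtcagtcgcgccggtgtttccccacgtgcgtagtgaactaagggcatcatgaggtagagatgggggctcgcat
The Ndufb10 window held neither motif, the Ndufb7 window held 1 ETS match and the Ndufaf4 window held 1 NRF1 match. Promoter windows were matched for 78 of the 86 members. The NRF1 motif was present in 15 of these 78 (19.2%), against 4.71% of all 27457 windows of the same length. The ETS motif was present in 22 (28.2%), against 9.22%. The core of the xenobiotic response element, GCGTG, to which the activated aryl hydrocarbon receptor binds, was present in 38 (48.7%), against 31.1%. Ndufb7 held 1 such core, and Ndufb10 and Ndufaf4 held none. These shares describe letters in a window, and the motifs were not read as sites. The members' windows were not matched to the other windows by G and C content, and its part in the shares was not tested.

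Respiratory chain transcripts differed little between dosed and vehicle livers. At a limma p below 0.05 after Benjamini-Hochberg adjustment across the whole array, 2 of 86 members fell, both accessory subunits of complex I, and 0 rose. Over all genes 3.11% fell, 3.32% rose and 6.43% changed in either direction, so the members' 2 calls were below the background share. Without adjustment, 3 members were higher and 6 lower at p under 0.05 (10.5%), against 9.62% higher and 10.2% lower of all genes (19.8%). The dosed arrays lay wholly below the vehicle arrays for 6 members and wholly above them for 0, against 4.07% below, 4.61% above and 8.67% either way of all genes.

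The size of the differences was also read from the intervals, which hold for the fit without covariates. They do not carry the RNA integrity difference between the groups that is given below. With the GAPDH covariate used there the members' median was -0.16, and some members, Ndufb10 among them, lay outside these intervals. The median difference, dosed minus vehicle, was -0.02 (log2) over the members and 0.00 over all genes. Its size without sign had a median of 0.05 over the members and 0.09 over all genes. A difference smaller than 0.1 was measured for 63 members (73.3%), against 55.3% of all genes. The 95% interval lay inside a 1.2-fold change either way for 62 members (72.1%; 42.6% of all genes) and inside 1.5-fold for 83 (96.5%; 91.7% of all genes). The 3 exceptions at 1.5-fold were Ndufaf4, Ndufaf1 and Cox8b. Among genes above the median probe-set signal, 73.1% of the 78 members there and 47.0% of all genes differed by less than 0.1. The median vehicle signal there was 11.50 for the members and 8.26 for all genes, so they were not compared at like signal.

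**Figure D1:**
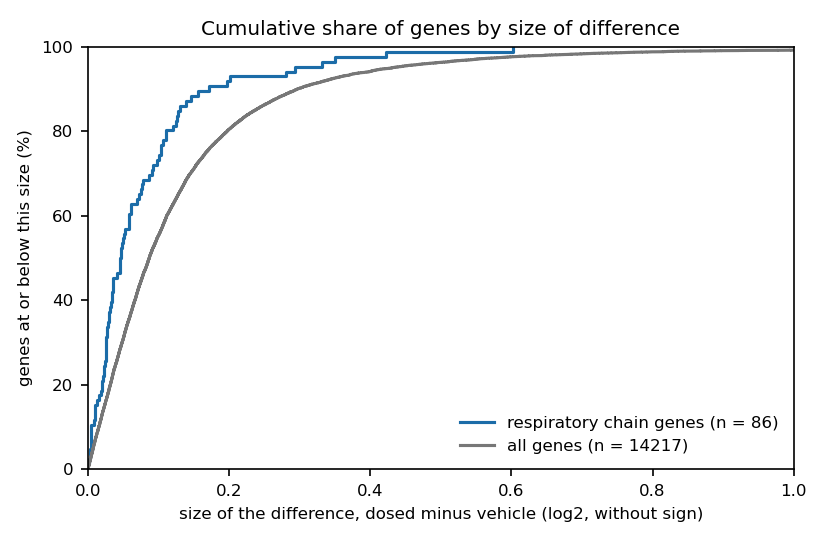
The cumulative percentage of genes (vertical axis) is plotted against the size of the dosed minus vehicle difference in log2 units without sign (horizontal axis) for the 86 respiratory chain genes (blue) and all 14217 genes (grey). The blue curve lies to the left of the grey curve, and at a difference of 0.1 it stands at 73.3% against 55.3%; the horizontal axis stops at 1.0, short of the farthest genes.

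**Figure D2:**
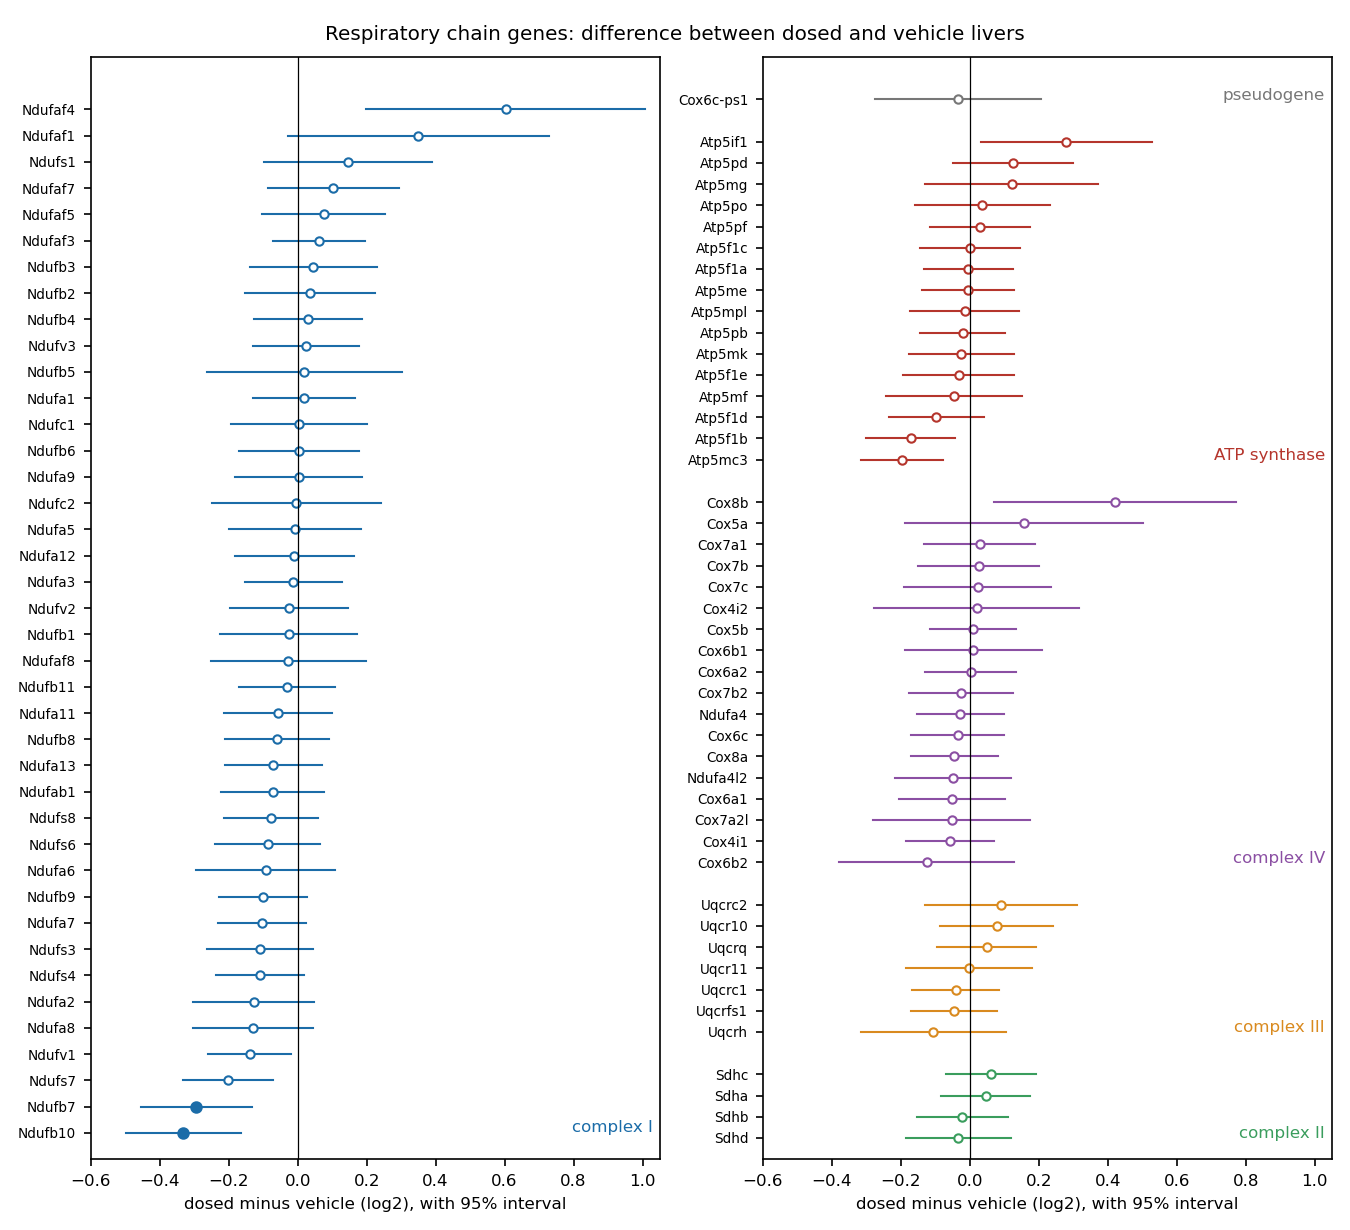
Each point is a member's dosed minus vehicle difference (log2) with its 95% interval from limma, 5 arrays per group, ordered within each complex; filled points passed the adjusted threshold of 0.05. Ndufb10 and Ndufb7 at the bottom of complex I are the filled points, and most of the other intervals cross 0.

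In complex I, the NADH dehydrogenase and the largest complex of the chain, 2 of 40 members fell, 0 rose and 38 did not pass. Of all genes 3.11% fell, 3.32% rose and 6.43% changed either way, so the share that fell was not below background here. Ndufb10 is an accessory subunit of the membrane arm. Its log2 signals were 11.19, 11.26, 11.23, 11.15 and 10.90 in vehicle livers 1 to 5 and 10.68, 10.81, 10.88, 10.85 and 10.85 in dosed livers 1 to 5. The groups did not overlap, but vehicle 5 lay close to the highest dosed liver. Ndufb10 fell by 0.33 ± 0.08 (SE, log2; 95% interval -0.50 to -0.16), a 1.26-fold lower level, with an adjusted p of 0.0272 by limma. Its call was lost when any of vehicle 1 to 4 or dosed 1, 2, 4 or 5 was left out, with adjusted p up to 0.0733. It held without vehicle 5 or without dosed 3.

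Ndufb7, another accessory subunit of the membrane arm, gave signals of 10.99, 10.99, 10.87, 10.80 and 10.67 in vehicle livers and 10.47, 10.57, 10.63, 10.53 and 10.66 in dosed livers. Here too every dosed liver lay below every vehicle liver, with vehicle 5 and dosed 5 nearly touching. The gene fell by 0.29 ± 0.07 (SE, log2; 95% interval -0.46 to -0.13), a 1.23-fold lower level, with a limma adjusted p of 0.0409. The call held without vehicle 5 alone, and leaving out any other array raised the adjusted p to as much as 0.104. RefSeq names 1 related copy of Ndufb10 and 0 of Ndufb7, and cross-reading from a copy was not tested.

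The proteins of Ndufb10 and Ndufb7 belong to a small group of complex I subunits that lie on the intermembrane-space side and carry paired cysteines, as do those of Ndufa8 and Ndufs5. This grouping was made after the values were seen. Ndufa8 differed by -0.13 ± 0.08 (SE, log2; adjusted p 0.496 by limma). A probe set listed for both Ndufs5 and a pseudogene differed by 0.10 ± 0.07 (adjusted p 0.586), so the 4 values were not of one sign.

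The core subunits of complex I carry its flavin, iron-sulphur clusters and quinone site. Of the 6 measured, 5 had a lower mean in dosed livers, with a median difference of -0.09, and 0 passed in limma. Without adjustment 2 of the 6 were lower at p under 0.05, against 10.2% of all genes. Ndufs7, which holds the last iron-sulphur cluster before ubiquinone, gave 11.37, 11.36, 11.37, 11.25 and 11.21 in vehicle livers and 11.13, 11.10, 11.07, 11.07 and 11.19 in dosed livers. The groups did not overlap, and the difference was -0.20 ± 0.06 (SE, log2; adjusted p 0.0860 by limma). Ndufv1, the flavin-bearing subunit that oxidises NADH, gave 10.96, 11.03, 10.91, 10.91 and 10.93 in vehicle livers and 10.75, 10.83, 10.79, 10.81 and 10.86 in dosed livers. These groups were also apart, at -0.14 ± 0.06 (adjusted p 0.216). Ndufs1, the large iron-sulphur subunit, was the exception in sign at 0.15 ± 0.11 (adjusted p 0.622). Ndufs7, Ndufv1 and Ndufs1 were singled out after their values were seen.

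The accessory subunits other than Ndufb10 and Ndufb7 lay closer to no difference than that pair, from -0.13 (Ndufa8) to 0.05 (Ndufb3). Of all 28 accessory genes, Ndufb10 and Ndufb7 included, 19 had a negative and 9 a positive difference. The 95% interval of 28 of 28 lay inside 1.5-fold. Ndufb9 gave -0.10 ± 0.06 (SE, log2; adjusted p 0.464 by limma) and Ndufb3 gave 0.05 ± 0.09 (adjusted p 0.883). Ndufb3 had vehicle signals of 12.29, 12.21, 12.17, 12.22 and 11.83 and dosed signals of 12.16, 12.19, 12.18, 12.12 and 12.30, so that vehicle 5 alone lay below the rest.

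Assembly factors help build complex I and are not part of the finished enzyme. Of the 6 measured, 5 had a positive difference, with a median of 0.09, and 0 passed in limma. Without adjustment 1 of the 6 was higher at p under 0.05, against 9.62% of all genes. Ndufaf4, a factor for the early quinone-binding module, gave 8.90, 9.02, 8.72, 8.62 and 7.90 in vehicle livers and 8.98, 9.56, 8.99, 9.34 and 9.32 in dosed livers. Vehicle 5 was the lowest by a wide margin, and vehicle 2 overlapped the dosed range. The difference was 0.60 ± 0.19 (SE, log2; adjusted p 0.0982 by limma; 95% interval 0.20 to 1.01). It was 0.42 with an adjusted p of 0.0718 when vehicle 5 was left out. Ndufaf1, chosen after its values were seen, gave 6.51, 6.67, 6.35, 6.69 and 5.66 in vehicle livers and 6.39, 6.81, 6.71, 6.94 and 6.77 in dosed livers. Its difference of 0.35 ± 0.17 (adjusted p 0.363) became 0.17 without vehicle 5, which was again the lowest array.

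**Figure D3:**
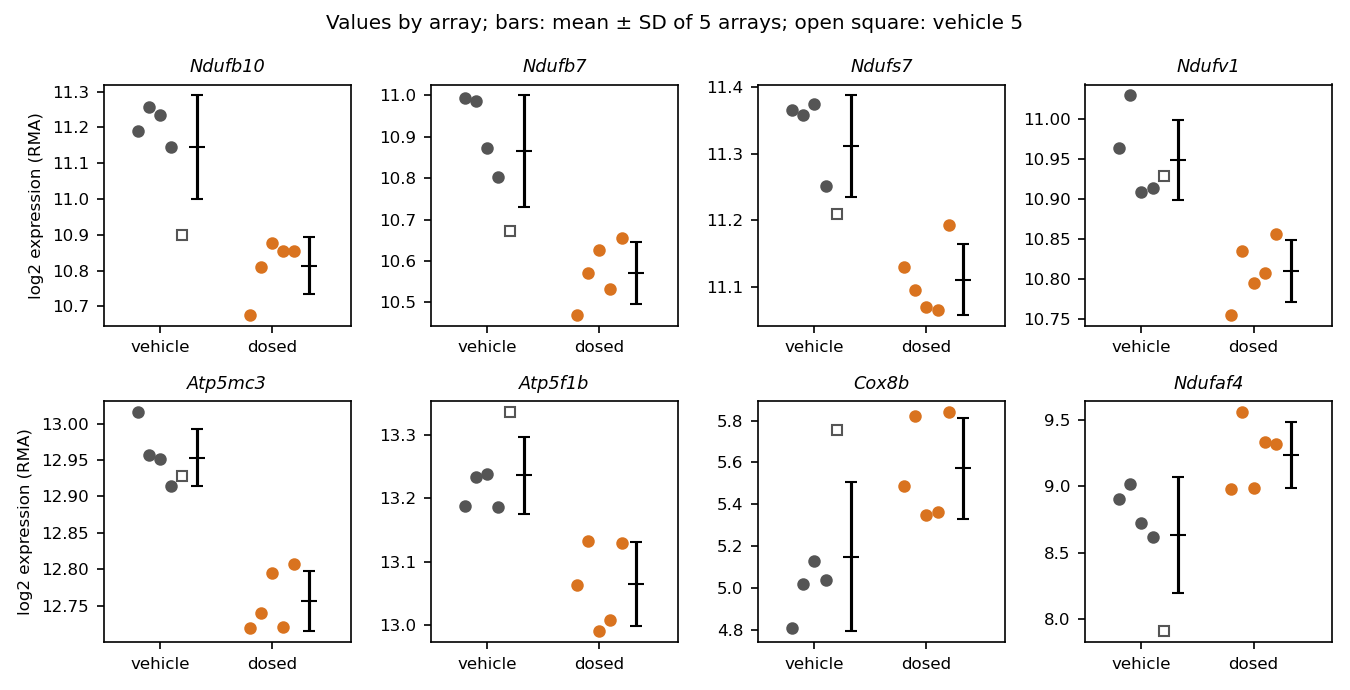
Log2 RMA signals of 8 members are plotted for the 5 vehicle (grey) and 5 dosed (orange) livers, with bars at the mean ± SD of 5 arrays and vehicle 5 as an open square; each panel has its own vertical axis, which does not start at 0. For Ndufb10, Ndufb7, Ndufs7, Ndufv1, Atp5mc3 and Atp5f1b every dosed liver lies below every vehicle liver, and for Cox8b and Ndufaf4 vehicle 5 lies apart from the other vehicle livers.

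Complex II, succinate dehydrogenase, is also an enzyme of the citric acid cycle and is encoded wholly in the nucleus. None of its 4 genes passed the threshold of 0.05 in limma, 0 were past an unadjusted p of 0.05, and all 4 intervals lay inside 1.2-fold. Sdhb, the iron-sulphur subunit, gave 11.93, 11.99, 11.92, 11.87 and 11.77 in vehicle livers and 11.88, 11.91, 11.83, 11.81 and 11.93 in dosed livers, which overlap throughout. The differences were -0.02 ± 0.06 (SE, log2) for Sdhb, 0.06 ± 0.06 for the membrane anchor Sdhc, and -0.03 ± 0.07 for the other anchor, Sdhd. A further probe set of Sdhd gave 0.02 ± 0.09. Sdha, the flavin-bearing subunit, was added after its values were seen and gave 0.05 ± 0.06.

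Complex III, the cytochrome bc1 complex, likewise had 0 of 7 members called by limma and 0 past an unadjusted p of 0.05. The differences ran from -0.11 ± 0.10 (SE, log2) for Uqcrh, the hinge protein, to 0.09 ± 0.10 for the core protein Uqcrc2. Uqcrc2 gave 11.53, 11.70, 11.59, 11.60 and 11.08 in vehicle livers and 11.60, 11.61, 11.59, 11.51 and 11.66 in dosed livers, so the positive difference followed vehicle 5, and without that array it was -0.01. A dimmer probe set of the same gene gave 0.26 ± 0.08 (adjusted p 0.103 by limma), and the cause of the disagreement was not tested. The small subunits Uqcr10 and Uqcrq differed by 0.08 ± 0.08 and 0.05 ± 0.07. The 95% intervals of 7 of 7 members lay inside 1.5-fold.

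Complex IV, cytochrome c oxidase, had 0 of 18 members called by limma. Without adjustment 1 was higher and 0 lower at p under 0.05, against 9.62% and 10.2% of all genes. Cox4i1, the main isoform of the largest nuclear-encoded subunit, gave 13.03, 13.05, 12.94, 13.02 and 12.85 in vehicle livers and 12.92, 12.94, 12.88, 12.90 and 12.95 in dosed livers. Its difference was -0.06 ± 0.06 (SE, log2), and that of the small subunit Cox7b was 0.03 ± 0.08. Cox5a was read from a probe set with a signal of 8.17, at 0.16 ± 0.16. A probe set listed for both Cox5a and another locus had a signal of 12.29 and gave 0.13 ± 0.06 (adjusted p 0.273 by limma). The sign was the same in both with all arrays. The dimmer probe set was lowest in vehicle 5, at 7.40. Its difference was -0.02 without that array and -0.315 with the GAPDH covariate. Cox5a was named here after its values were seen.

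Several complex IV subunits have tissue-specific isoforms, and in these livers such genes were dim. Cox4i2, Cox6a2, Cox6b2, Cox7a1, Cox7b2, Cox8b and the related Ndufa4l2 were at or below the median probe-set signal, as was the pseudogene Cox6c-ps1. Cox6b2, known best from testis, had the most negative difference of complex IV with all arrays, at -0.13 ± 0.12 (SE, log2; adjusted p 0.709 by limma). Its highest vehicle array was vehicle 5, at 4.73. The difference was -0.02 without that array and 0.21 with the GAPDH covariate. Cox8b, the isoform of heart and skeletal muscle, gave 4.81, 5.02, 5.13, 5.04 and 5.76 in vehicle livers and 5.49, 5.82, 5.35, 5.37 and 5.84 in dosed livers. All dosed livers were above vehicle 1 to 4, and vehicle 5 lay within the dosed range. The difference over all arrays was 0.42 ± 0.16 (adjusted p 0.196), and without vehicle 5 it was 0.57 ± 0.12 with an adjusted p of 0.0117. Of the 8 striated muscle markers, 8 were at or below the median signal and 1 rose, Actn2, at 0.68 ± 0.15 (adjusted p 0.0192). Their summed signal was 210 to 265 in vehicle and 244 to 292 in dosed livers, and its part in the Cox8b values was not tested. The list's median difference was 0.01, and 3.32% of all genes rose. The markers other than Actn2 ran from -0.12 ± 0.10 (Ckm) to 0.06 ± 0.07 (Acta1).

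ATP synthase had 0 of 16 members called by limma. Without adjustment 1 was higher and 2 lower at p under 0.05, against 9.62% and 10.2% of all genes. Atp5mc3 encodes a copy of the c subunit, which forms the rotating ring in the membrane. It gave 13.02, 12.96, 12.95, 12.91 and 12.93 in vehicle livers and 12.72, 12.74, 12.80, 12.72 and 12.81 in dosed livers. The groups did not overlap, at -0.20 ± 0.05 (SE, log2; 95% interval -0.31 to -0.08), and the adjusted p was 0.0617. The proteins of Atp5mc1 and Atp5mc2 are the same mature c subunit. Probe sets listed for these genes together with a like-named locus gave 0.16 ± 0.08 (adjusted p 0.311) and -0.01 ± 0.06, and neither passed.

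Atp5f1b, the catalytic beta subunit of the F1 head, gave 13.19, 13.23, 13.24, 13.19 and 13.34 in vehicle livers and 13.06, 13.13, 12.99, 13.01 and 13.13 in dosed livers. Vehicle 5 was the highest here, whereas it was the lowest vehicle array for Ndufb10 and Ndufb7. The groups did not overlap, at -0.17 ± 0.06 (SE, log2; adjusted p 0.146 by limma), and the alpha subunit Atp5f1a, added after its values were seen, differed by 0.00 ± 0.06. Atp5if1, the inhibitor that blocks ATP hydrolysis by the enzyme, gave 8.86, 9.01, 8.60, 8.94 and 8.34 in vehicle livers and 9.02, 9.08, 9.12, 8.94 and 8.98 in dosed livers. The ranges overlapped, and vehicle 5 was the lowest. The difference was 0.28 ± 0.11 (adjusted p 0.236), and it was 0.18 without vehicle 5. Dimmer probe sets of Atp5if1 gave 0.06 ± 0.07 and 0.06 ± 0.07, and the mean over its probe sets gave 0.13 ± 0.07. The 95% intervals of 16 of 16 members lay inside 1.5-fold.

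The 5 vehicle livers did not carry the respiratory chain genes at one level. Vehicle 5 was the lowest vehicle array for 54 of 86 members (62.8%), against 32.3% of all genes. Its mean deviation from each member's mean over the 10 arrays was -0.14 (log2), and it was -0.20 for complex I, -0.19 for complex III, -0.14 for ATP synthase, -0.08 for complex II and -0.03 for complex IV. Vehicle 2 was the highest array at 0.10. The complex IV mean joined dim and bright genes that parted in vehicle 5. Among vehicle livers it was the highest for the dim Cox4i2, Cox6b2, Cox7a1, Cox7b2, Cox8b and Ndufa4l2, but not Cox6a2. It was the lowest for the brighter Cox4i1, Cox5a, Cox6b1, Cox6c, Cox7a2l, Cox7b and Cox7c, but not for Cox5b, Cox6a1, Cox8a or Ndufa4. The median SD of a member was 0.13 among vehicle livers, 0.08 among vehicle livers 1 to 4 and 0.07 among dosed livers. Over all genes it was 0.15, 0.10 and 0.11 in the same order, so the spread fell without vehicle 5 there too.

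**Figure D4:**
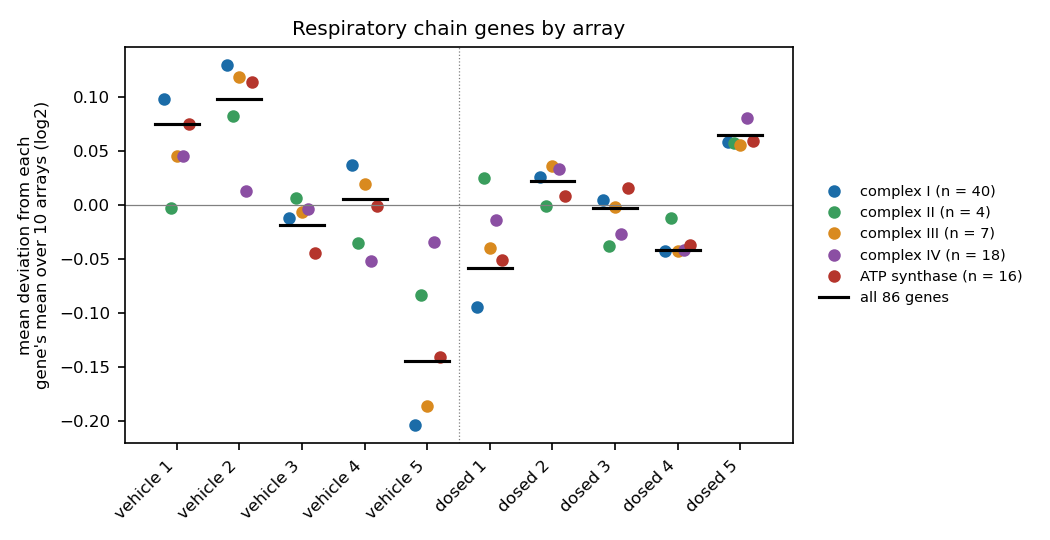
For each of the 10 arrays the vertical axis gives the mean deviation (log2) of the members from each gene's own mean over all arrays, by complex (coloured points) and over all 86 genes (black bars). Vehicle 5 has the lowest bar at -0.14 and vehicle 2 the highest at 0.10, while the dosed arrays lie between -0.06 and 0.06.

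Without vehicle 5, 4 members fell and 1 rose by limma, against a background of 4.92% lower and 3.83% higher. Those that fell were Ndufb10 (-0.39 ± 0.06, SE, log2; adjusted p 0.00265), Ndufb7 (-0.34 ± 0.07; adjusted p 0.00872), Ndufs7 (-0.23 ± 0.06; adjusted p 0.0349) and Atp5mc3 (-0.20 ± 0.05; adjusted p 0.0449), and the one that rose was Cox8b. The difference was then negative for 64 of 86 members, with a median of -0.04 against 0.01 over all genes, where with all arrays 51 were negative. The members' share called either way remained below the 8.74% of all genes.

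A measure of RNA integrity moved with the groups. The signal at the 3′ end of the GAPDH control transcript exceeded that at its 5′ end by 0.45 ± 0.12 in the vehicle group (SD, n = 5, log2) and by 0.23 ± 0.05 in the dosed group (SD, n = 5), and vehicle 5 was highest at 0.65. The exact two-sided permutation test gave p = 0.00794, the smallest that the 252 splits allow, or 0.0159 adjusted over 2 measures. The like difference for beta-actin was 1.59 ± 0.12 in the vehicle group and 1.40 ± 0.14 in the dosed group, SD over 5 arrays each, with p = 0.0476 in the exact permutation test and 0.0476 after adjustment. With the GAPDH measure as a covariate in limma, 74 of 86 members had a negative difference, including 16 of 16 for ATP synthase, and the median was -0.16 against 0.01 over all genes. In that fit Ndufb10 fell (-0.55 ± 0.10, SE, log2; adjusted p 0.0287), Cox8b rose (1.00 ± 0.17; adjusted p 0.0197) and Ndufaf4 was at -0.03, against a background of 0.802% called in each direction and 1.60% in either. With the GAPDH covariate and without vehicle 5, 65 of 86 were negative, with a median of -0.08 against -0.02 over all genes, and 0 members passed. With the beta-actin covariate the members' median was 0.01, 45 were positive and 0 passed. The GAPDH values of the groups did not overlap, so the covariate and the dose can be told apart only by the spread within groups.

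**Figure D5:**
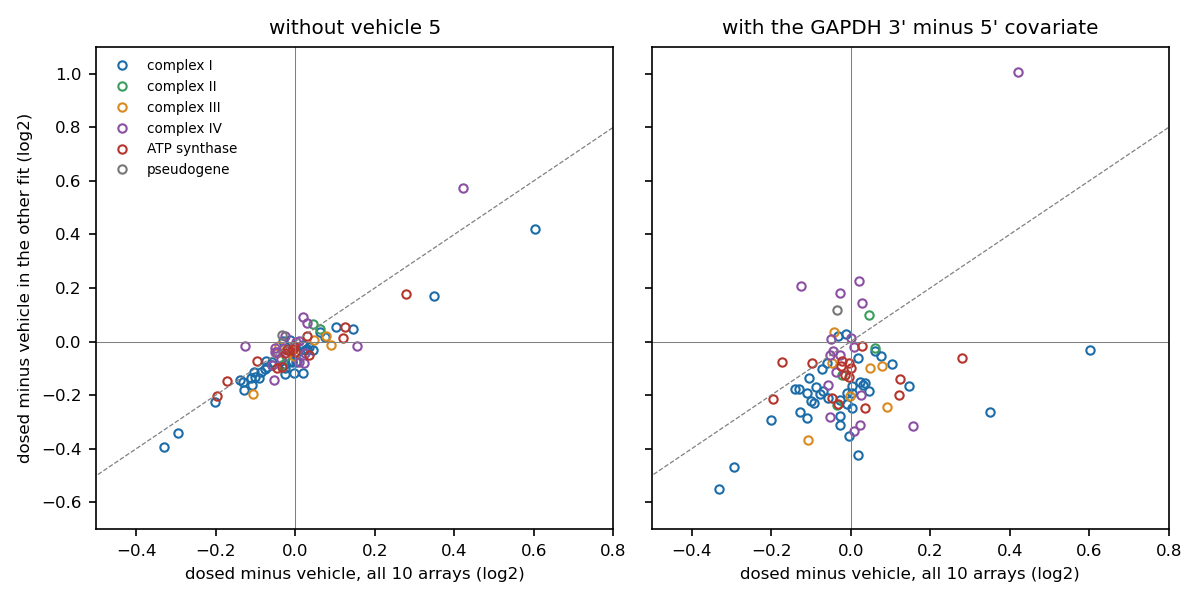
Each point is 1 of the 86 members, coloured by complex, with its dosed minus vehicle difference (log2) from all 10 arrays on the horizontal axis and from another fit on the vertical axis; the dashed line marks equal values. Without vehicle 5 (left) the points stay near the line and 64 lie below 0, and with the GAPDH covariate (right) 74 lie below 0 and Cox8b stands at 1.00.

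Markers of liver cell types gave the following values beside these genes. Over all genes 3.11% fell and 3.32% rose after adjustment, and 10.2% were lower and 9.62% higher at an unadjusted p of 0.05. Of 8 hepatocyte markers 1 rose, Apoa1 (0.38 ± 0.07, SE, log2; adjusted p 0.00883 by limma), and the list's median difference was 0.00. Their summed signal was 149467 to 154977 in vehicle and 150696 to 159586 in dosed livers. Of 6 Kupffer cell and macrophage markers 1 fell, Cd5l (-0.52 ± 0.12; adjusted p 0.0256; called in 11 of 20 alternatives), 5 were lower at an unadjusted p of 0.05, the median was -0.36, and the summed signal was 5304 to 6813 in vehicle and 3624 to 5030 in dosed livers. Of 8 stellate cell markers 1 fell, Lrat (-0.51 ± 0.10; adjusted p 0.00889), 3 were lower at an unadjusted p of 0.05, and the median was -0.15. None of 6 endothelial, 5 cholangiocyte, 7 lymphocyte and 6 fat markers passed, with medians of -0.12, 0.07, -0.01 and 0.01 and 1, 0, 1 and 0 genes past an unadjusted p of 0.05. The part of cell makeup in the members' values was not tested.

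Several genes that make ubiquinone or feed electrons to it changed in these livers. In that list 4 of 21 genes fell and 1 rose, against 3.11% and 3.32% of all genes, with a median of -0.01. Coq8a, a kinase-like protein needed for ubiquinone synthesis, fell by 0.74 ± 0.13 (SE, log2; adjusted p 0.00444 by limma). Coq10a and Coq10b, paralogs that bind ubiquinone, moved in opposite directions. Coq10a fell by 0.66 ± 0.12 (adjusted p 0.00692) and Coq10b rose by 0.58 ± 0.09 (adjusted p 0.00237). Prodh2, which oxidises hydroxyproline, fell by 0.65 ± 0.09 (adjusted p 0.00117), and Sqor, which passes electrons from sulphide to ubiquinone, fell by 0.55 ± 0.11 (adjusted p 0.00929); Sqor was the fifth gene past the threshold and was added after its values were seen.

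Among 43 assembly factors outside the Nduf names, 1 rose and 0 fell, with a median of 0.06. At an unadjusted p of 0.05, 8 were higher and 1 lower, against 9.62% and 10.2% of all genes. The gene that rose was Acad9, a flavoprotein that works with Ndufaf1 in complex I assembly, at 0.52 ± 0.08 (SE, log2; adjusted p 0.00191 by limma), and every dosed liver was above every vehicle liver. Of 4 genes listed for cytochrome c and cytochrome c1, 2 were measured, and neither encodes cytochrome c itself. Cyc1, which encodes cytochrome c1 of complex III and lies outside the name rule, gave -0.10 ± 0.08. The haem lyase Hccs gave -0.12 ± 0.14, and neither passed. In the citric acid cycle and pyruvate entry 2 of 16 genes fell, against 3.11% of all genes, with a median of -0.01. They were Pc, pyruvate carboxylase (-0.40 ± 0.09; adjusted p 0.0251), and Cs, citrate synthase (-0.35 ± 0.09; adjusted p 0.0389). The value for Cs was -0.15, with an adjusted p of 0.236, when its probe sets were averaged. Cs was called in 5 of 20 alternatives and Pc in 11.

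Of 22 genes of mitochondrial biogenesis and mitochondrial DNA expression 1 rose and 0 fell, with 3 higher and 3 lower at an unadjusted p of 0.05 and a median of 0.01. The gene that rose was Pprc1, a coactivator of the PGC-1 family (0.51 ± 0.12, SE, log2; adjusted p 0.0316 by limma), which was called in 10 of 20 alternatives. Of 73 mitochondrial ribosomal protein genes 1 rose, Mrps18b (0.44 ± 0.11; adjusted p 0.0456), and 0 fell, with a median of 0.03. Mrps18b was called in 4 of 20 alternatives. Of 16 carriers and pores 1 fell, the aspartate-glutamate carrier Slc25a13 (-0.40 ± 0.08; adjusted p 0.00857), with a median of -0.01. The phosphate carrier Slc25a3 and the ADP/ATP carrier Slc25a5, which supply ATP synthase, differed by 0.00 ± 0.05 and 0.08 ± 0.06. Of 14 chaperones and proteases 0 passed, 3 were higher at an unadjusted p of 0.05, and the median was 0.11. With the GAPDH covariate the 17 lists together had 0 genes higher and 2 lower, where the fit without it had 6 and 9. These lists were compiled with earlier results of these data known and are not independent evidence.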

How the data were processed

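Liver RNA was hybridised to Affymetrix RG230_2.0 rat arrays. The deposited values are log2 signals that the authors made with RMA, per the submitters' processing notes; the RMA version is not given in the sources used here. The 10 arrays held 31042 probe sets besides 57 controls. By the platform annotation 20826 name 1 gene, 436 several and 9780 none, and 20758 took their current RefSeq symbol by Entrez ID. The 86 members had 96 probe sets; 7 probe sets with several symbols were left out of the counts. Differences were fitted on all probe sets with limma 3.58.1 in R 4.3.3 (lmFit, eBayes, two-sided), adjusted by Benjamini-Hochberg at 0.05. The means ± SE are from that fit, and scripts were tested on simulated data. Same-numbered vehicle and dosed arrays did not deviate together (correlations -0.28 to 0.22), so they were not paired. For 42 members RefSeq names a related copy, and cross-reading was not tested.

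Named genes were the members past the threshold and, in each complex, the 2 brightest and those with the highest and lowest difference; in each related list, up to 4 past the threshold or the 2 brightest. Exceptions are said in place. The members and lists were chosen with earlier results of these data known. Alternatives changed the probe-set rule, moderation, filter, normalization, array weights, covariates, replicate block, threshold and arrays used.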

Additional observations from a re-analysis of the deposited data

Results flagged for a closer look

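In 38 groups of 5 arrays tested for an array that stands apart, 2 had a gap to the nearest array above the Dixon critical value of 0.71 of the group's range; chance alone gives about 5% of groups. Ndufb3, an accessory subunit of complex I, was at 11.83 (log2) in vehicle 5 and at 12.17 to 12.29 in the other vehicle livers. Uqcrc2, a core protein of complex III, was at 11.08 in vehicle 5 and at 11.53 to 11.70 in the other vehicle livers. Both are the array with the highest GAPDH 3′ minus 5′ difference (0.65), and the part of RNA quality in these values was not tested.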

How the results depend on the processing

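The count of members that fell, 2 with all arrays, was 4 after renewed quantile normalization and with array weights, 1 with the GAPDH covariate, and 0 with median centring, with the beta-actin covariate, at an adjusted p under 0.01, and with the GAPDH covariate and no vehicle 5, an alternative chosen after seeing the data. The count that rose, 0 with all arrays, was 1 (Cox8b) with array weights and with the GAPDH covariate. Leaving out 1 array at a time gave 0 to 4 that fell and 0 to 1 that rose; the 4 and the 1 came without vehicle 5, and 8 of the 10 fits had 0 that fell. Ndufb10 stayed negative in 20 of 20 alternatives (-0.55 to -0.30, log2), as did Ndufb7 (-0.47 to -0.26), and they were called in 8 and 6 of these, in that order. The fits that left out an array had fewer arrays and degrees of freedom. The cause of the lost calls was not tested in any of these alternatives.

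With the replicate number as a block, 0 members fell, with limma adjusted p of 0.0765 for Ndufb10 and 0.121 for Ndufb7; the numbers were not found to pair the samples.

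Over the related lists, 6 genes rose and 9 fell. The counts were 11 and 14 after renewed quantile normalization, 10 and 16 with array weights, 0 and 2 with the GAPDH covariate, 2 and 2 with the beta-actin covariate, and 0 and 0 with the GAPDH covariate and no vehicle 5. The number that fell was 15 with dim probe sets left out, and the number that rose was 3 at an adjusted p under 0.01. Leaving out 1 array gave 4 to 6 that rose and 6 to 15 that fell, the 15 without vehicle 5. Of 677 recomputed values of 34 single genes, 556 stayed on their side of the threshold, 112 fell short of it, 9 passed it and 0 called values changed sign. Values that were not called could change sign, as Ndufaf4 (-0.03) and Atp5if1 (-0.06) did with the GAPDH covariate. Probe sets near the median signal limit the isoforms of complex IV and the assembly factor Ndufaf1.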
